A study of Bos taurus with 6 samples.

Results

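Of the 23704 genes measured in bovine primordial follicles, 15 were below 1 TPM in each of 3 libraries of freshly collected follicles (T0) and at least 5 TPM in each of 3 libraries of follicles cultured for 16 h (T16). TPM is the share of a transcript among all transcripts, corrected for its length and scaled to a fixed total. The 15 genes are what remained of 18 that met both limits (0.0759% of all genes) after MMP1, MMP3 and HSPA12A were set aside with 3 further genes that did not meet them (CXCL2, CXCL5 and TRIB3). The opposite pattern, at least 5 TPM in every T0 library and below 1 TPM in every T16 library, was met by 7 genes (0.0295%). The genes were chosen by their TPM in these same 6 libraries, so their difference between the time points is described and not tested.

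The follicles were mechanically isolated from abattoir ovaries of Holstein Friesian dairy cows in the second year of life, and pooled. Each primordial follicle (PMF) is an oocyte enclosed by flattened pre-granulosa cells, and both time points carry the same label for tissue. By the study's methods, T0 pools rested for 1 h in a medium holding insulin, transferrin, selenium and FSH before lysis, while the conditions of the 16 h culture and the makeup of the T16 pools are not given in the sources used here. No source states that the pools of a group came from separate animals, so any p-value measures only the spread between these libraries.

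The total of estimated counts ranged from 22174653 to 30212698 at T0 and from 25761986 to 36703016 at T16. Among 14 oocyte markers, 13 exceeded 1 TPM in every T0 library and 7 in every T16 library. Among 10 granulosa cell markers 7 did so at each time point, but not the same 7. Of these 10, 2 (FOXL2 and WNT6) had every T16 library below every T0 library and 1 (FST) every one above, beside 11.6% and 11.5% of all tested genes. WNT6 had 39.0, 155 and 74.6 TPM at T0 and 0.0547, 15.1 and 1.54 TPM at T16. FOXL2 had 37.3 to 141 TPM at T0 and 3.37 to 20.1 TPM at T16, and FST 24.4 to 90.0 and 259 to 513 TPM. The summed oocyte markers were 522, 2120 and 3124 TPM in T0 replicates 1, 2 and 3 and 1955, 89.2 and 811 TPM in T16 replicates 1, 2 and 3, so that T16 replicate 2 held the least oocyte RNA of the 6 libraries. Markers of stroma were also present, with sums of 1063 to 2443 TPM at T0 and 272 to 1655 TPM at T16. Theca and steroid markers summed to 3706, 1272 and 656 TPM at T0 and 68.0, 1917 and 611 TPM at T16. Ovarian surface epithelium markers summed to 7755, 2576 and 652 TPM at T0 and 484, 6324 and 2156 TPM at T16. KRT8 alone had 7671, 2383 and 419 TPM at T0 and 241, 6286 and 1908 TPM at T16. KRT18, a keratin of the granulosa list, was likewise highest in T0 replicate 1 and T16 replicate 2 (1277 and 1341 TPM). Of the other epithelium markers, KRT7 was at 0 in every T16 library and MSLN at most 3.84 TPM there. The sum is thus mainly one of keratins and does not measure that cell type. Smooth muscle and pericyte markers summed to 115 to 441 TPM at T0 and 30.7 to 109 TPM at T16. The makeup of the pools thus varied widely within each time point. In such bulk RNA, fewer cells of a type and less RNA per cell cannot be told apart.

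The 15 genes comprised coding, long noncoding and short RNAs. Of these, 8 were protein-coding (ESM1, CDC40, CYP1A1, ESAM, AHRR, IL13RA2, ADAMTS5 and P2RY1), 1 was a long noncoding RNA (LOC101906081), and 6 were short: the miRNA hairpins MIR222, MIR27A, MIR374B, MIR155 and MIR6534 and the snoRNA LOC112442143. The coding genes include members of well-known systems. The aryl hydrocarbon receptor is a ligand-activated transcription factor that enters the nucleus, pairs with ARNT and induces xenobiotic-metabolizing enzymes such as CYP1A1 together with its own repressor, AHRR. ESM1 and ESAM are best known from endothelial cells, ADAMTS5 cleaves the large proteoglycans of the extracellular matrix, and IL13RA2 and P2RY1 are cell surface receptors. miRNAs are cut from longer primary transcripts by way of a hairpin precursor, often several from one primary transcript.

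No count in any T0 library was seen for 7 of the genes (CDC40 and the 6 short RNAs). A count of 0 over the T0 group allows a level of up to 0.0420 CPM (3 counts over the group, scaled to its total of matched counts and covering counting error only). Only 10 of the 15 passed the filter of at least 10 counts in at least 3 libraries. All 10 reached 10 counts in every T16 library and only ADAMTS5 also did so in every T0 library, while MIR27A, MIR374B, MIR155, MIR6534 and LOC112442143 did not pass. edgeR's quasi-likelihood test called 0 of these 10 at an FDR below 0.05 (adjusted p from 0.0539 to 0.107), against 0.0342% of all tested genes called higher. At an unadjusted p below 0.05 it called 10, against 8.61% of tested genes, and DESeq2 called 10 (adjusted p from 2.32e-21 to 7.67e-06), against 4.06%. Since the limits fixed this contrast, nothing is read from these counts.

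**Figure D1:**
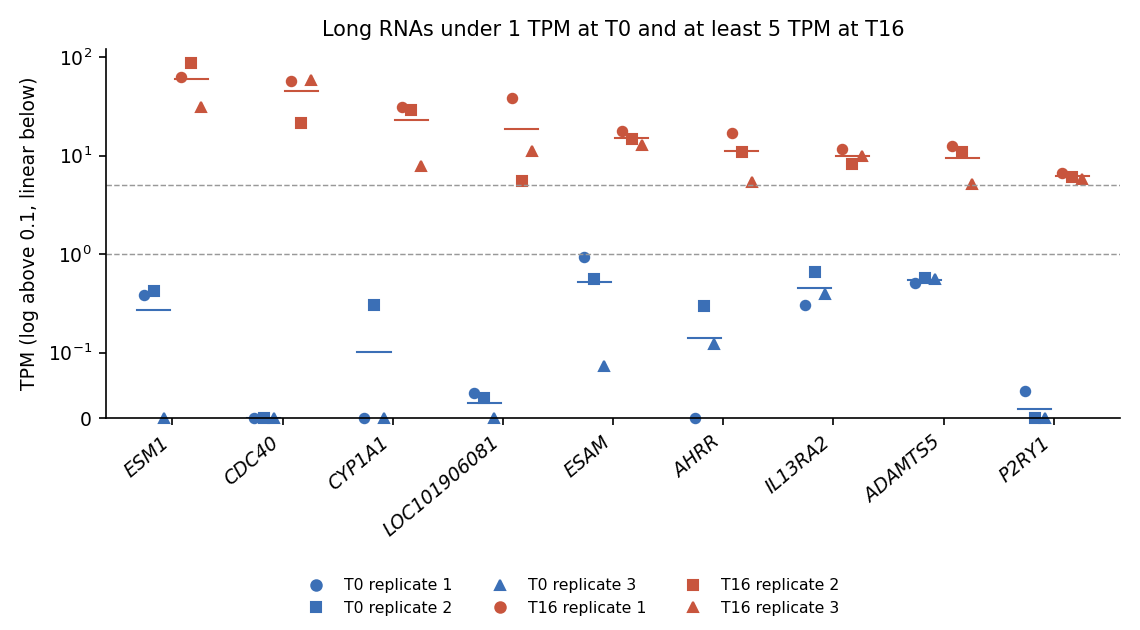
TPM of the 9 long RNAs (8 coding genes and LOC101906081) in each library, on an axis that is logarithmic above 0.1 TPM and linear below; points are single libraries, solid lines are group means (n = 3) and dashed lines mark the limits of 1 and 5 TPM. ESM1 has the highest T16 mean, 60.1 TPM, and P2RY1 the tightest T16 values, from 5.82 to 6.61 TPM.

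The enzyme CYP1A1, a cytochrome P450 that oxidizes aromatic hydrocarbons and estrogens, had 0, 0.302 and 0 TPM in T0 replicates 1, 2 and 3 and 31.3, 29.0 and 7.87 TPM in T16 replicates 1, 2 and 3. Its T0 signal was 15 counts in replicate 2 alone, and T16 replicate 3 stood well under the other T16 libraries. The T16 mean was 22.7 TPM (SD 12.9, n = 3), and the CPM pooled over T16 was 167 times that over T0 (95% interval 101 to 300, for counting error only, as for all such ratios here). AHRR, which competes with the receptor for ARNT, had 0, 0.299 and 0.122 TPM at T0 and 17.1, 10.96 and 5.42 TPM at T16 in the same order. The T16 libraries were thus ordered as for CYP1A1, from replicate 1 down to replicate 3. The mean of AHRR at T16 was 11.2 TPM (SD 5.85, n = 3), and the pooled ratio was 70.7 (37.1 to 155). On the log2 scale the fitted difference was 7.82 (SE 1.57) for CYP1A1 and 6.46 (SE 1.32) for AHRR.

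A set of 10 further genes of this pathway, put together after the values were seen and given without a test, did not all go the same way. Of the 8 that passed the count filter, 3 (CYP1B1, TIPARP and PTGES3) had every T16 library above every T0 library and 1 (ARNT2) had every T16 library below, beside 11.5% and 11.6% of all tested genes. CYP1B1, the related P450 of extrahepatic tissues, had 0.293, 0.213 and 2.55 TPM at T0 and 222, 63.3 and 74.9 TPM at T16. It missed the T0 limit through replicate 3 alone. TIPARP, a target that ADP-ribosylates the receptor, had 47.2, 58.3 and 153 TPM at T0 and 325, 212 and 159 TPM at T16, so that T0 replicate 3 came close to T16 replicate 3. The receptor gene AHR itself was expressed in every library and overlapped between the groups, with 6.17, 7.99 and 12.99 TPM at T0 and 46.7, 15.1 and 9.28 TPM at T16. Its partner ARNT also overlapped, at 19.8 to 24.7 TPM at T0 and 5.81 to 34.9 TPM at T16. The other partner, ARNT2, was lower in every T16 library (0.801 to 2.69 TPM) than in any T0 library (3.61 to 6.32 TPM). The target NQO1 overlapped, at 11.01 to 41.3 TPM at T0 and 5.93 to 32.5 TPM at T16. CYP1A2, the neighbour and closest relative of CYP1A1, had no estimated count in any library. Whether reads that fit both paralogs were assigned to CYP1A1 was not tested.

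**Figure D2:**
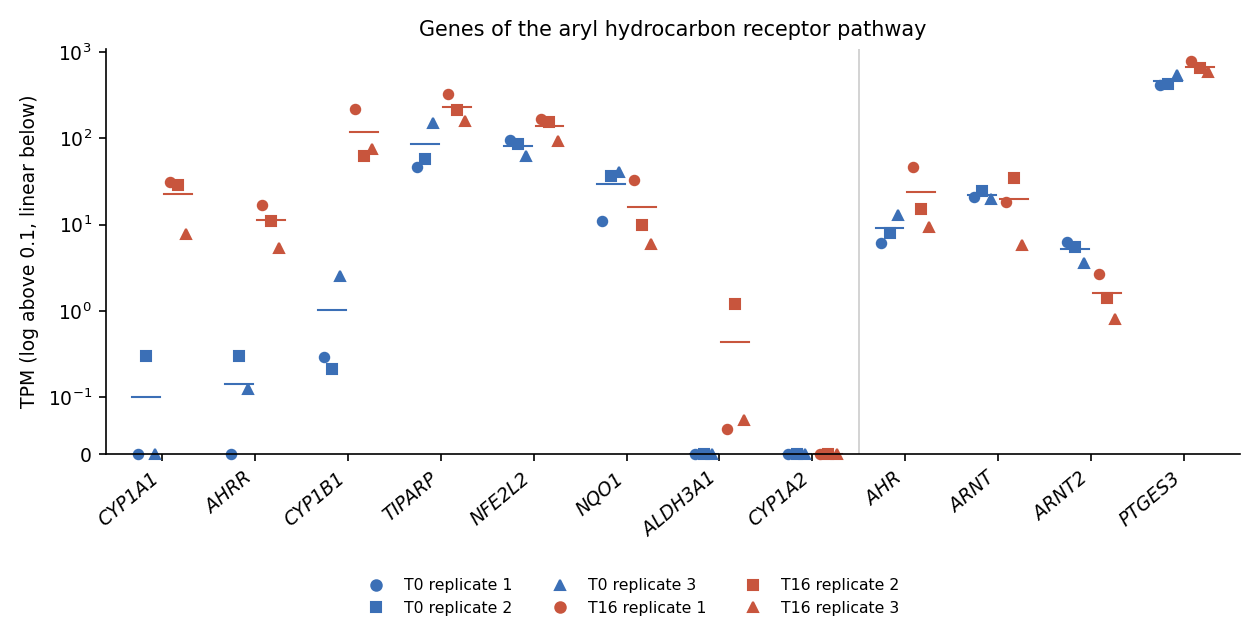
TPM of targets and regulators (left of the grey line) and of the receptor, its partners and the co-chaperone PTGES3 (right) in each library, on an axis that is logarithmic above 0.1 TPM and linear below; points are single libraries and lines are group means (n = 3). CYP1A1 and AHRR separate by time point through the limits that chose them. Among the genes not so chosen, CYP1B1 separates, AHR, ARNT and NQO1 overlap and ARNT2 is lower at T16.

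ESM1 encodes endocan, a proteoglycan that endothelial tip cells secrete. It had 0.384, 0.422 and 0 TPM at T0 and 62.4, 86.7 and 31.3 TPM at T16, or 12, 16 and 0 counts against 1993, 2436 and 1494. All T16 libraries lay far above all T0 libraries, and replicate 2 was the highest of them. The T16 mean of 60.1 TPM (SD 27.8, n = 3) gave a pooled ratio of 184 (127 to 278). ESAM, an immunoglobulin-type adhesion molecule of endothelial junctions and platelets, had 0.935, 0.564 and 0.0793 TPM at T0 and 17.8, 14.7 and 12.9 TPM at T16. Its T16 libraries were close to each other (mean 15.1 TPM, SD 2.47, n = 3), while T0 replicate 1 sat just inside the limit, and the pooled ratio was 26.4 (19.7 to 36.0).

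The summed level of 7 endothelium markers was 392, 246 and 22.5 TPM at T0 and 15.03, 39.0 and 21.8 TPM at T16, so it was lower in the cultured pools than in T0 replicates 1 and 2 and similar to replicate 3. Of the 6 markers that passed the count filter, 0 had every T16 library above every T0 library, beside 11.5% of all tested genes. PECAM1, the pan-endothelial adhesion molecule, had 0.602, 6.57 and 0 TPM at T0 and 0, 0.843 and 0.588 TPM at T16, and CDH5, the cadherin of endothelial junctions, stayed at or below 1.54 TPM in all libraries. EMCN was at 0 in every T16 library and in T0 replicate 3. VWF had 1.77 to 5.02 TPM at T0 and 1.65 to 6.10 TPM at T16, and TEK 1.65 to 6.86 and 0.151 to 8.18 TPM. KDR had 0 to 0.752 TPM at T0 and 0 to 0.842 TPM at T16. In CDH5, VWF, TEK and KDR the groups overlapped, and the highest of all libraries was a T16 library. Most of the T0 sum was the junction gene CLDN5, with 382, 228 and 13.6 TPM at T0 and 4.36, 31.3 and 16.9 TPM at T16. Among these 6, edgeR called 0 at its FDR, against 0.00683% of all tested genes called lower (1 marker at an unadjusted p below 0.05), and DESeq2 called CLDN5 lower (adjusted p = 0.0127), against 2.96% of all tested genes. The neutrophil markers summed to 19.5, 9.25 and 3.03 TPM at T16 against at most 0.881 TPM at T0. The chemokine receptor CXCR2 made up most of this in T16 replicates 1 and 2 (15.4 and 7.92 TPM). In T16 replicate 3 it had 1.42 TPM, beside 1.36 TPM of S100A12, which had no count in any other library. S100A8 was at most 0.609 TPM, and S100A9 had 3.52, 0.727 and 0.254 TPM at T16. The macrophage markers summed to 59.4, 2.78 and 13.4 TPM at T16 against 9.66 to 52.2 TPM at T0, with 4 of 10 at 0 in every T16 library. CSF1R made up most of that sum in every T0 library and overlapped between the groups. CD68 had 0, 0 and 0.838 TPM at T0 and 14.2, 1.00 and 5.51 TPM at T16, the only one of the 10 with every T16 library above every T0 library. Whether cells of any of these types were present, or had a part in the values of ESM1 and ESAM, was not tested.

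**Figure D3:**
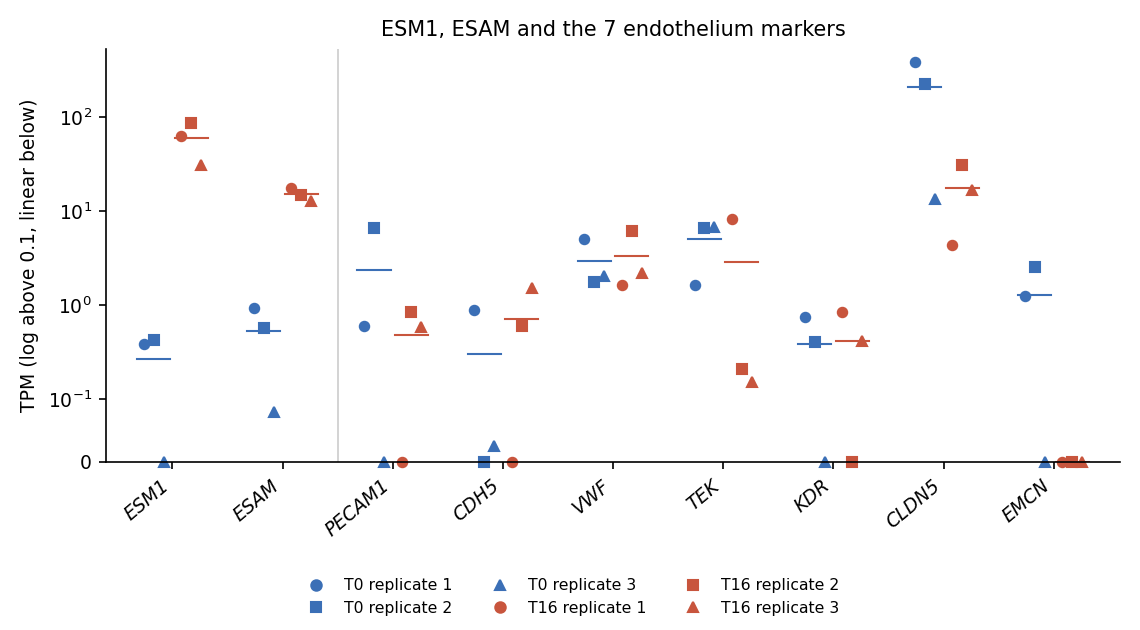
TPM of ESM1 and ESAM (left of the grey line) and of the 7 endothelium markers (right) in each library, on an axis that is logarithmic above 0.1 TPM and linear below; points are single libraries and lines are group means (n = 3). ESM1 and ESAM are higher in every T16 library by the limits that chose them. None of the markers, which those limits did not choose, separates the groups. EMCN is at 0 in every T16 library and in T0 replicate 3.

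Both surface receptors were even across the T16 libraries. IL13RA2, a decoy receptor that binds interleukin 13 with high affinity, had 0.305, 0.663 and 0.391 TPM at T0 and 11.6, 8.18 and 9.999 TPM at T16 (T16 mean 9.93, SD 1.72, n = 3). The groups lay far apart, with a pooled ratio of 19.7 (13.9 to 28.8). Of the signalling receptor subunits, IL13RA1 had 59.2 to 68.0 TPM at T0 and 36.4 to 87.3 TPM at T16 and overlapped, and IL4R had 11.7 to 25.0 TPM at T0 and 25.1 to 28.9 TPM at T16, the groups nearly touching. The shared subunit IL2RG was low, at 0 to 1.95 TPM at T0 and 1.13 to 1.86 TPM at T16. The ligands IL13 and IL4 had no count in any library.

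P2RY1, a G protein-coupled receptor for ADP, had 0.0409, 0 and 0 TPM at T0, which was a single read in replicate 1. At T16 it had 6.61, 6.06 and 5.82 TPM, the narrowest spread of the 15 genes (mean 6.16, SD 0.407, n = 3). Its pooled ratio of 449 rests on that 1 T0 count and has an interval of 80.1 to 17751. Of 8 further P2Y receptor genes, also assembled after the values were seen, 3 passed the count filter. Among these, 0 had every T16 library above every T0 library and 2 (P2RY6 and P2RY14) had every one below, beside 11.5% and 11.6% of all tested genes. P2RY6, the receptor for UDP, had 3.56, 6.82 and 4.24 TPM at T0 and 0, 0.774 and 0.781 TPM at T16.

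ADAMTS5, or aggrecanase 2, cleaves aggrecan and versican. It had 0.505, 0.574 and 0.556 TPM at T0, the most even T0 values among the genes with T0 reads, and 12.4, 10.97 and 5.14 TPM at T16. T16 replicate 3 was thus just over the limit, and the T16 mean was 9.49 TPM (SD 3.83, n = 3) with a pooled ratio of 15.7 (12.4 to 20.0), the lowest among the long RNAs. Of 9 related proteases, substrates and inhibitors chosen after the values were seen, 5 passed the count filter. Among these, 0 had every T16 library above every T0 library and 1 (ADAMTS9) had every one below, close to the 11.5% and 11.6% of all tested genes. ADAMTS1, the neighbouring gene and a versicanase of the ovulatory follicle, was already at 57.3 to 308 TPM at T0 and at 203 to 261 TPM at T16. The substrate versican (VCAN) ranged from 2.01 to 48.4 TPM at T0 and had 0, 56.9 and 20.9 TPM at T16, and aggrecan (ACAN) was at most 0.414 TPM in all libraries.

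Of 20 lists of genes, only that of matrix proteases, the plasminogen system and serpins held one of the 15, ADAMTS5. Without it, 30 of its genes were tested. edgeR called 0 of them in either direction (1 higher and 1 lower at an unadjusted p below 0.05, against 8.61% and 5.14% of all tested genes), and DESeq2 called 1 higher and 1 lower, against 4.06% and 2.96%. MMP1 and MMP3, set aside at the outset although they met both limits, are not among the 30. Without them, these counts are near the shares over all tested genes, and they do not speak for all matrix proteases. The median log2 difference was -0.11, beside -0.08 over all tested genes. The higher one, MMP7 or matrilysin, had 0, 0 and 0.148 TPM at T0 and 1.24, 4.99 and 12.2 TPM at T16 (log2 difference 7.11, SE 1.83, edgeR adjusted p = 0.147, DESeq2 adjusted p = 0.00226). In the lower one, SERPINA5, the protein C inhibitor, values were 7.44, 21.4 and 5.25 TPM at T0 and 1.22, 2.15 and 2.39 TPM at T16 (log2 difference -2.38, SE 0.83, edgeR adjusted p = 0.257, DESeq2 adjusted p = 0.0365). PLAUR, the urokinase receptor, overlapped between the groups, with 102 to 584 TPM at T0 and 515 to 2576 TPM at T16.

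CDC40 was the extreme case among the long RNAs. It encodes the spliceosome protein also called PRP17, which acts in the second catalytic step of splicing. There was not 1 count in any T0 library, against 3284, 1069 and 4921 counts at T16, equal to 57.8, 21.4 and 58.1 TPM (mean 45.8, SD 21.1, n = 3). Its pooled CPM was at least 2692-fold higher at T16, taking 3 counts over the T0 group as the floor. Other factors of this step were present at T0. SLU7 had 39.2 to 44.7 TPM, PRPF18 43.9 to 68.9 TPM and the helicase DHX38 14.7 to 18.0 TPM, all of them second step factors. Of 6 spliceosome genes, chosen after the values were seen, 2 (SLU7 and CWC22) had every T16 library above every T0 library, beside 11.5% of all tested genes. A single transcript was matched to CDC40, of 3546 bases. Reads that went to another CDC40 transcript without a gene name would be missed at T0, and this was not tested. METTL24, which overlaps CDC40 in the annotation, had 2.24 to 3.04 TPM at T0 and at most 1.12 TPM at T16, and the neighbour WASF1, an actin regulator, had 8.90, 13.4 and 11.4 TPM at T0 and 68.8, 47.7 and 31.9 TPM at T16.

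LOC101906081, a long noncoding RNA between RBPMS and DCTN6, had 0.0379, 0.0313 and 0 TPM at T0, or 2 counts in all. At T16 it had 38.8, 5.54 and 11.1 TPM, the highest ratio of highest to lowest library among the long RNAs (mean 18.5, SD 17.8, n = 3). Replicate 1 alone held 70.0% of the summed T16 level. The pooled ratio of 707 (195 to 5841) rests on those 2 counts.

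The 6 short RNAs are between 63 and 131 bases long, and the effective lengths by which the reads were scaled were only 7.56 to 22.3 bases. A single read was therefore worth 1.81 to 8.73 TPM, against 0.0118 to 0.0542 TPM for the long RNAs. The limit of 1 TPM at T0 thus meant no read at all for these RNAs, and the T16 limit was reached with very few. Their counts, not their TPM, carry the information, and their TPM are not compared with those of the long RNAs. The cDNA kit primes on poly(A) tails, which primary transcripts of miRNAs carry and mature miRNAs and hairpins usually lack, and the counts do not say from which of these RNAs a read on a hairpin came.

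MIR222, which forms a cluster with MIR221, was the only short RNA to pass the count filter. It had no count at T0 and 175, 55 and 144 counts at T16 (682, 247 and 367 TPM), with replicate 2 the lowest, and its pooled CPM was at least 109-fold higher at T16. MIR221 had nearly the same counts, 0, 0 and 2 at T0 and 174, 51 and 135 at T16, and was outside the limits only through those 2 reads, worth 8.89 TPM in T0 replicate 3. The cluster of MIR23A, MIR27A and MIR24-2 was likewise lowest in T16 replicate 2. MIR27A had no count at T0 and 39, 3 and 40 at T16 (240.0, 20.8 and 163 TPM), so that replicate 2 was at the 3 reads that a count of 0 still allows. MIR23A had 22, 0 and 32 counts at T16 and MIR24-2 had 31, 2 and 58, with 1 count between them at T0.

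MIR374B had 20, 5 and 24 counts at T16 (94.8, 27.7 and 77.2 TPM). Its cluster partner MIR421 had 4, 0 and 0 counts, and LOC104970537, the gene in which it lies, was low at both time points, at 1.18 to 3.73 TPM at T0 and 2.18 to 9.10 TPM at T16. MIR155, a miRNA of activated leukocytes and inflamed tissues, rested on 6, 2 and 5 counts (46.7, 17.5 and 26.4 TPM). At this depth that is close to what a count of 0 allows in a single library. MIR6534 had 9, 9 and 5 counts (56.2, 64.6 and 21.0 TPM) and LOC112442143 had 11, 5 and 9 (31.3, 16.2 and 16.3 TPM). Against the floor of 3 counts over the T0 group, the pooled CPM was at least 23.8-fold higher for MIR27A, 14.2-fold for MIR374B, 7.26-fold for LOC112442143, 6.68-fold for MIR6534 and 3.77-fold for MIR155.

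MIR6534 and LOC112442143 lie inside coding genes whose own level was higher at T16. The host of MIR6534 is GPATCH4, with 12.5, 22.7 and 13.04 TPM at T0 and 71.9, 35.4 and 64.6 TPM at T16. That of LOC112442143 is DENR, a factor of translation reinitiation, with 68.2, 43.1 and 50.8 TPM at T0 and 166, 136 and 133 TPM at T16. In both host genes every T16 library was above every T0 library. How far reads of the host transcripts contributed to the short RNAs was not tested.

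Over all 796 miRNA genes, 612 had no count in any library. Between 43 and 82 had a count in a T0 library and between 48 and 74 in a T16 library, and their summed counts were 2161 to 4618 at T0 and 1513 to 2870 at T16, so the T16 libraries did not hold more hairpin reads in general. A count in every T16 library and none at T0 was found for 5 miRNA genes, which are the 5 given here, and 0 had the reverse. For hairpins this is nearly the rule that chose the 5, so nothing is read from their return.

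**Figure D4:**
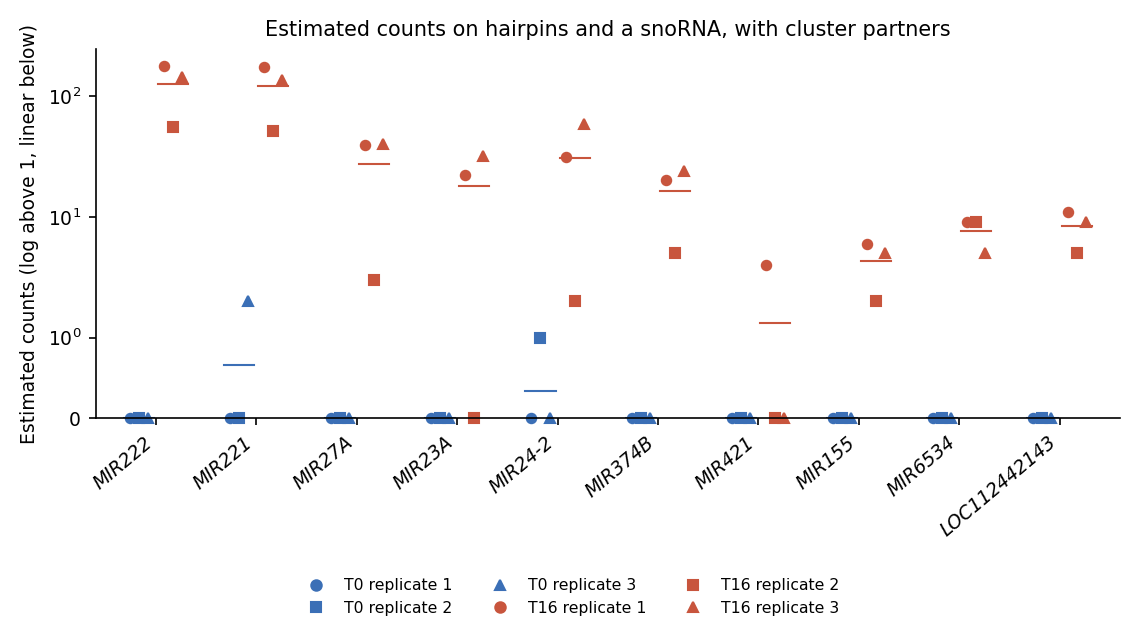
Estimated counts of the 6 short RNAs and of 4 cluster partners (MIR221, MIR23A, MIR24-2 and MIR421) in each library, on an axis that is logarithmic above 1 count and linear below; points are single libraries and lines are group means (n = 3). T16 replicate 2 is the lowest T16 library for MIR222, MIR221, MIR27A and MIR23A, and MIR155 lies between 2 and 6 counts.

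Single transcripts were examined for reads that had moved between isoforms of a gene. Of the 15 genes, 12 had 1 matched transcript and 3 had several. In CYP1A1 the 15 T0 counts all fell on one isoform (XM_005222018.4), which held 2.39% of the T16 counts, and the other (XM_002696635.5) went from 0 to 97.6% of the T16 counts. The lengths of these isoforms are 2655 and 2658 bases. In IL13RA2 the isoform that held all T0 counts (NM_001102296.1) had 0.305, 0.663 and 0.391 TPM at T0 and 1.02, 0.658 and 1.22 TPM at T16, or 10.8% of the T16 counts. The remaining T16 counts were on XM_024988247.1 (66.3%) and XM_024988248.1 (22.9%), both without a count at T0, and the latter was also at 0 in T16 replicate 3. In ADAMTS5 the leading isoform kept most of the counts, with 92.1% at T0 and 84.8% at T16. The limits were set on the sum over isoforms, so the 12 genes with 1 matched transcript met them with that transcript by selection. Among the 3 with several, only CYP1A1 had a single transcript that met both limits on its own. IL13RA2 and ADAMTS5 met them only as a sum.

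Within T16, the 15 genes did not share 1 order of the libraries. Replicate 1 was the highest for 12 of them, replicate 2 for ESM1 and MIR6534 and replicate 3 for CDC40, whereas over all tested genes these shares were 43.8%, 37.6% and 18.6%. The lowest T16 library was replicate 2 for 8 genes (CDC40, IL13RA2, LOC101906081 and 5 short RNAs) and replicate 3 for the other 7, among them CYP1A1, AHRR, ESM1, ESAM, ADAMTS5 and P2RY1. Of all tested genes, 32.1%, 31.4% and 36.4% were lowest in replicates 1, 2 and 3. The ratio of the highest to the lowest T16 library ran from 1.14 for P2RY1 to 11.6 for MIR27A, whose lowest library held only 3 reads. The oocyte markers had 68.5% of their summed T16 level in replicate 1, 3.12% in replicate 2 and 28.4% in replicate 3. MIR27A, with 4.90% in replicate 2 on 3 reads, and LOC101906081, with a share of 10.004%, were nearest to the markers in that library. By contrast, CYP1A1 had 42.5% and ESM1 48.1% in replicate 2. The part of the oocyte content in these differences was not tested.

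**Figure D5:**
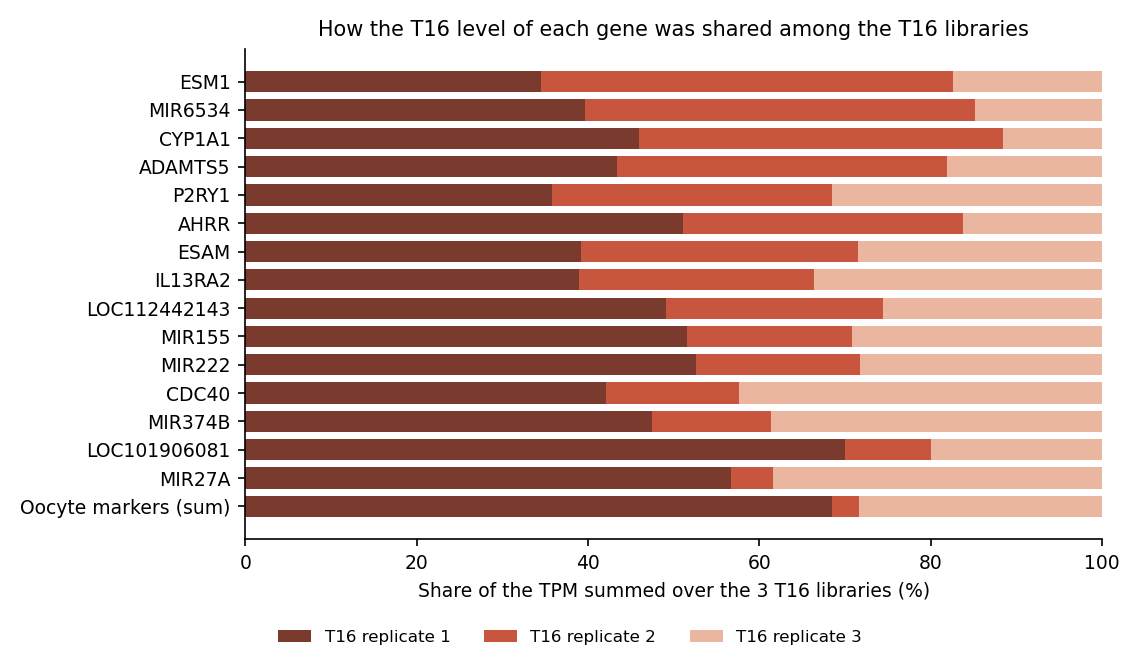
Share (%) of each gene's TPM, summed over the 3 T16 libraries, that came from each library, with genes ordered by the share of replicate 2; the lowest bar is the sum of 14 oocyte markers. The share of replicate 2 runs from 4.90% for MIR27A, which rests on 3 reads there, to 48.1% for ESM1 and is 3.12% for the oocyte markers.

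The annotation places 21 tested genes within, over or next to the 15. In 7 of these every T16 library was above every T0 library, against 11.5% of all tested genes, and in 3 (METTL24, DDO and NAXE) every one was below, near the 11.6% of all tested genes. Of these 7, GPATCH4 and DENR contain short RNAs of the set and MIR221 is the cluster partner of MIR222. Their values may thus not be separate from those of the short RNAs. Besides these and WASF1, the higher ones were EXOC3 beside AHRR (50.4 to 67.5 TPM at T0, 88.8 to 168 TPM at T16), MSANTD2 beside ESAM (11.5 to 14.3 and 34.0 to 41.6 TPM) and MBNL1 beside P2RY1 (31.8 to 44.8 and 53.2 to 77.2 TPM). Neighbourhood was read from an annotation of a later assembly, and without a statement that strand was kept in the libraries, reads of overlapping genes on opposite strands cannot be told apart.

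Other genes lay close to the limits on either side. Just inside the T0 limit were ESAM at 0.935 TPM, IL13RA2 at 0.663 TPM and ADAMTS5 at 0.574 TPM in their highest T0 library. RGS4 at 1.02 TPM, PLEKHG6 at 1.04 TPM and CYP27B1, the vitamin D activating hydroxylase, at 1.08 TPM lay just outside. Just inside the T16 limit were ADAMTS5 at 5.14 TPM, AHRR at 5.42 TPM and LOC101906081 at 5.54 TPM in their lowest T16 library, and just outside were F2RL3 at 4.63 TPM and CEP290 at 4.16 TPM. F2RL3, a thrombin receptor, had no count at T0.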

How the data were processed

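RNA of pooled PMF was profiled in 3 T0 and 3 T16 libraries (SMART-Seq v4 cDNA). The authors trimmed reads with Trim Galore and fastp and mapped them with Salmon to the ARS-UCD1.3 transcriptome. They deposited, per RefSeq transcript, the estimated counts, the TPM, and transcript lengths and effective lengths in bases. Gene symbols were looked up by transcript accession in RefSeq's annotation of the later assembly ARS-UCD2.0, whose coordinates are not printed. A symbol was found for 50205 of 76123 transcripts (66.0%), with 89.1% to 90.3% of the counts of a library, and the counts of the rest were left out. Estimated counts (rounded) and TPM were summed to genes. The main test of T16 against T0 was the quasi-likelihood test of edgeR 4.0.16 in R 4.3.3, after TMM normalization. A gene entered it when 3 or more libraries each held 10 or more counts, and the Benjamini-Hochberg FDR was set at 0.05. DESeq2 1.42.0 was the alternative tool, and the procedure was tested on simulated data. CPM ratios have exact 95% intervals conditional on the counts. Intervals and floors (3 counts) cover counting error only, and reads carry no molecular identifiers.

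The 15 genes, the gene lists and the marker lists were chosen with earlier results of these data known, and the sets of receptor, splicing, protease and cluster genes after the values were seen. All 15 genes are named with each library's value. The 3 genes nearest each limit are also named, except where a result is not reported here, as are up to 4 genes by smallest edgeR p of a list that holds one of the 15. Alternatives were the tool, normalization, low count filter, transcript length offsets, replicate block, each library left out, and other limits and units. The labels do not say whether the replicate numbers pair the samples. Deviations of same-numbered libraries correlated at -0.445, -0.121 and -0.0047, and those of differently numbered ones at up to 0.438. So few values from pools of varying makeup cannot decide whether the libraries are paired.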

Additional observations from a re-analysis of the deposited data

How the results depend on the processing

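The genes called by edgeR (6) rose to 1027 with DESeq2 and 11 without the low count filter, which also called CDC40 (adjusted p = 0.0159). With the replicate number as a block, 0 were called (1385 at an unadjusted p below 0.05). Whether the numbers pair the samples is not known. With 1 library left out, 0 to 3 were called. The fitted differences of the 10 tested genes, whose direction the limits fix, ran from 3.94 to 14.57 on the log2 scale over 95 alternative values, 11 of them past the FDR and 84 not. CYP1A1 rose from 7.82 to 12.90 without T0 replicate 2, the only T0 library with its reads. Without any one T16 library, 5 of the 10 did not pass the count filter and gave no value.

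The number of genes within the limits (15) was 12 with T0 below 0.5 TPM, 26 with T0 below 2 TPM, 9 with T16 of at least 10 TPM, 40 with T16 of at least 2 TPM, 91 by group means and 45 when transcripts were counted. In CPM it was 11, of which 7 were among the 15, and all 6 short RNAs, ADAMTS5 and ESAM dropped out. With 1 library left out, which can only add genes, it was 17 to 29. Without T0 replicate 3 it was 29, with CYP1B1 and MIR221 among the additions, without T16 replicate 2 it was 29, and without T16 replicate 3 it was 25. TPM rescaled over matched transcripts kept 14 of the 15 and exchanged ESAM for F2RL3. The median of the protease list ranged from -0.89 to 0.95 and that of the endothelium markers from -1.17 to 0.02.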

Other observations

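The limits were also met by single transcripts of genes outside the 15, and most of these genes were already expressed at T0. Of 45 such transcripts, 31 had a gene name, 13 in the genes described above, 5 in 4 of the genes set aside and 13 in 13 other genes. In 11 of these 13, all transcripts together had at least 5 TPM in every T0 library. One isoform of RBM39, an RNA-binding splicing factor, had no TPM at T0 and 94.0, 12.6 and 28.0 TPM at T16, while the gene as a whole had 147 to 214 TPM at T0 and 169 to 329 TPM at T16. An isoform of KMT5B, a histone H4 methyltransferase, went from 0 to between 6.70 and 10.6 TPM, with the gene at 44.6 to 130 TPM at T0 and 50.6 to 223 TPM at T16. In the kinesin receptor gene KTN1 an isoform went from 0 to between 6.17 and 13.5 TPM beside a gene level of 41.1 to 41.3 TPM at T0 and 46.9 to 102 TPM at T16. Salmon shares reads among similar isoforms, and whether the isoforms differed in the follicles was not tested.

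A further 14 transcripts that met the limits matched no gene name (mean 6.35 to 24.5 TPM at T16), and 6 of them had no count at T0. The opposite limits were met by 30 transcripts, 7 of them without a gene name.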
